A study of Mus musculus with 6 samples.

Results

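Egr1, Egr2, Egr3, Egr4, Arc, Npas4, Ier2, Ier3, Zfp36 and Btg2 are early genes, transcribed soon after a cell is stimulated, and their RNA was measured in mouse pancreatic islets with and without Ffar3, a receptor for short-chain fatty acids. The 10 genes were taken by symbol, from a list drawn up with earlier results of these data known. Each had its own row among the 23179 gene rows, and all 10 were among the 11669 rows that averaged 1 FPKM or more across all 6 libraries, which were tested. FPKM is the number of sequenced fragments scaled by transcript length and by a measure of library size. Egr2 passed that minimum through the wild-type libraries, since its mean without Ffar3 was 0.996 FPKM. The wild-type (WT) group held 3 libraries and the Ffar3-/- (KO) group held 3. All mice were C57BL/6J males aged 10 to 14 weeks, and every library was made from total RNA of islets taken from the pooled isolations of 2 pancreata. The sources used here do not say how the Ffar3 allele was made, nor whether the receptor was missing from islets alone. No stimulus is given for either group, so the values are those of isolated islets as they were collected.

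Early genes are switched on within minutes of membrane depolarisation, calcium entry, cyclic AMP or growth factor signalling, from transcription factors that are already present, and their RNAs are short-lived. Serum response factor (SRF), bound at CArG boxes with ERK-phosphorylated partners such as ELK1, and CREB, bound at cyclic AMP response elements (CRE), are the best known of these factors. In islets, glucose-driven calcium entry in beta cells induces several of these genes. Egr1 to Egr4 encode related zinc finger transcription factors that bind GC-rich sites. Arc encodes a cytoskeleton-associated protein and Npas4 a calcium-induced transcription factor, both studied mostly in neurons. Zfp36 encodes tristetraprolin, which binds AU-rich elements of mRNAs and recruits the CCR4-NOT deadenylase, and Btg2 encodes an antiproliferative protein that also binds that complex. Ier2 encodes a nuclear protein of early growth responses and Ier3 a regulator of cell survival induced by NF-kB. Ffar3 itself couples to inhibitory G proteins.

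The libraries differed in other measures as well. Ffar3, the targeted gene, stood at 4.69, 5.26 and 6.68 FPKM in the WT libraries and at 0, 0 and 0.105 FPKM in the KO libraries. Total depth is unknown, and the fragments behind 1 FPKM were estimated at 59.5% to 119% of those in WT replicate 1, lowest in KO replicate 3. Transcripts of 25 acinar markers summed to 27308 to 42786 FPKM in WT and to 25549, 256499 and 546525 FPKM in KO replicates 1, 2 and 3, so 2 KO libraries stood apart from the other 4. None of the 25 acinar genes passed the test between groups. Of the islet lists, the beta-cell markers without the insulin genes summed to 38396 to 40167 FPKM in WT and 30118 to 36950 FPKM in KO. Of those 16 markers 9 were called lower, beside 19.6% of all tested genes. Most of the beta-cell sum was Iapp, at 34745 to 36606 FPKM in WT and 27415 to 33357 FPKM in KO. Iapp itself was not called (limma adjusted p = 0.804). The insulin genes were left out because Ins2 had 0 in every library and Ins1 had 0 in 4, with 43721 FPKM in KO replicate 2 and 48334 FPKM in KO replicate 3. These zeros were not taken as absence of insulin RNA from the islets, and their cause was not tested. Summed alpha-cell markers were 19877 to 24086 FPKM in WT and 7236 to 13615 FPKM in KO, and delta-cell markers were 7181 to 7567 FPKM against 3923 to 6555 FPKM. Most of the alpha-cell sum was Gcg, at 18617 to 22807 FPKM in WT and 6474 to 12436 FPKM in KO. Duct markers summed to 1305 to 1456 FPKM in WT and 1697 to 2298 FPKM in KO. Of 11 tested duct markers 4 were called higher, beside 20.3% of all tested genes. Of the 4, Krt19 reached the 1 FPKM minimum through KO alone. Endothelial and stellate sums were 157 to 202 and 12.3 to 13.9 FPKM in WT and 146 to 173 and 5.75 to 10.9 FPKM in KO. The summed Schwann and neural markers were 54.1 to 84.1 FPKM in WT and 26.4 to 31.3 FPKM in KO. Most of that sum was Tubb3, at 48.4 to 77.4 FPKM in WT and 23.2 to 27.7 FPKM in KO. The part of these cell types in the early-gene differences was not tested. In bulk RNA, fewer cells of a type and less RNA per cell cannot be told apart.

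Of the 10 early genes, 8 were lower in KO islets (Egr1, Egr2, Egr3, Egr4, Arc, Npas4, Ier2 and Btg2), 0 were higher, and 2 (Ier3 and Zfp36) did not pass the test, which was limma on log2(FPKM + 1) with an adjusted p threshold of 0.05. Among all tested genes, 39.9% were called and 19.6% were called lower, against 8 of 10 here. Egr2, counted among the 8, reached the 1 FPKM minimum through WT alone. The 10 were also chosen with earlier results of these data known, so the count is a description. In the same 8 genes every KO library lay below every WT library, a pattern seen in 28.5% of all tested genes. The median log2 difference, KO minus WT, was -1.30 over the 10 genes and -0.01 over all tested genes. Of the 10, 7 were called lower with a fall of at least 1 on the log2 scale, as were 87 of the 11669 tested genes. KO replicate 1 was the KO library whose acinar transcripts were near the WT level. With it as the only KO library, the median log2 difference was -1.35 over the 10 genes and -0.02 over all tested genes. In that fit the spread comes from the WT libraries only, and the lone KO library is assumed to vary like them, here and wherever it is used. Differences on this scale understate the change of genes with low FPKM such as Egr2 and Egr3. The p-values measure the spread between these libraries, which the labels call biological replicates, and 3 libraries against 3 cannot give an exact permutation p below 0.1.

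**Figure D1:**
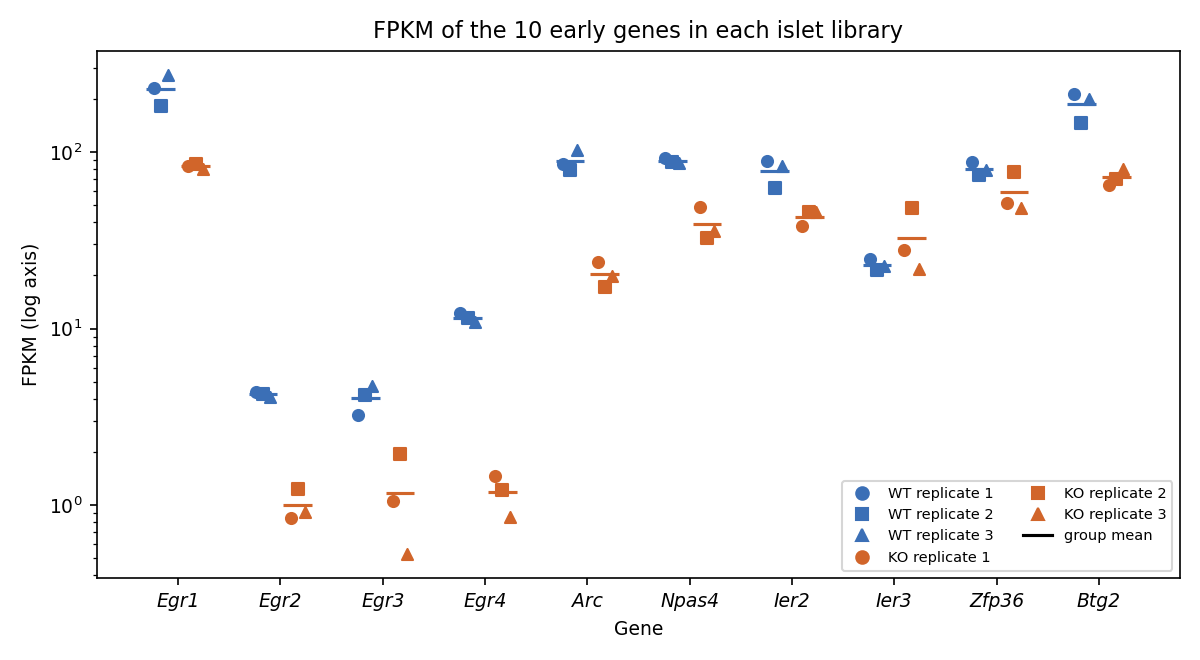
FPKM of each of the 10 early genes in each library, on a log axis; points are single libraries, WT and KO, and bars are group means. The groups are separate in 8 genes and overlap in Ier3 and Zfp36.

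RefSeq promoter windows were matched for 6 of the 10 genes (Btg2, Egr2, Egr4, Ier3, Npas4 and Zfp36), and 5 are printed here because they hold the elements through which SRF, CREB and the EGR proteins are known to act. Each is read 5′ to 3′ on the gene's strand, on GRCm38.p6, with the element named in capitals. For Zfp36 and Npas4 only a 30-base stretch is shown, since that part of the window lies within an annotated first exon.
Egr2, chr10:67537619-67537868, plus strand, CArG box and CRE cores in capitals: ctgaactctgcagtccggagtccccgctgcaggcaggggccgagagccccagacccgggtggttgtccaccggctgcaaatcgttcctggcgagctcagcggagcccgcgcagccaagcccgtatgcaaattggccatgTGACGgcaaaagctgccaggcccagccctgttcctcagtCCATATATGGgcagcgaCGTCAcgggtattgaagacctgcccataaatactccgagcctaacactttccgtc
Egr4, chr6:85513590-85513839, minus strand, CRE cores and TATAA in capitals: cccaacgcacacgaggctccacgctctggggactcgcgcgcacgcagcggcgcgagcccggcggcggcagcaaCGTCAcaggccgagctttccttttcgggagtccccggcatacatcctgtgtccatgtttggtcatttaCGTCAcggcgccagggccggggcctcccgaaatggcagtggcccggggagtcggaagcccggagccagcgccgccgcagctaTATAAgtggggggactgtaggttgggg
Btg2, chr1:134079156-134079405, minus strand, full CRE and EGR site in capitals: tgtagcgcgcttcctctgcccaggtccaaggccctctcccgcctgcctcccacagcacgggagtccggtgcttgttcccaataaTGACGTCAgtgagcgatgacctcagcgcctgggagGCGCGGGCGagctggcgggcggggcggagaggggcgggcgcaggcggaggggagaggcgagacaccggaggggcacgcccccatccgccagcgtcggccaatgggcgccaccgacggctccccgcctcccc
Npas4, chr19:4990128-4990157, minus strand, CRE cores in capitals: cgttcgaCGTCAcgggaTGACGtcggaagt
Zfp36, chr7:28379267-28379296, minus strand, CArG box in capitals: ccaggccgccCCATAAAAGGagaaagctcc
The motifs were searched on both strands in the 250 bases before each start. They were the CArG box, the CRE (TGACGTCA), its core (TGACG, which the full CRE holds on both strands), the EGR site (GCGNGGGCG), the AP-1 site (TGANTCA) and TATAA. A CArG box was found in Egr2, 72 to 63 bases before the start, and in Zfp36, 58 to 49 bases before it, so in 2 of 6 genes, and in 1.47% of 32851 RefSeq windows of that length. Egr2 has 5 windows in the table, and the one shown starts at 67537869. CRE cores were found in 4 of 6 genes (Btg2, Egr4, Egr2 and Npas4) and in 17.8% of all windows. In Egr4 they lay at -177 to -173 and -109 to -105, in Egr2 at -111 to -107 and -55 to -51, and in Npas4 at -179 to -175 and -169 to -165. The full CRE was found in Btg2 alone, at -166 to -159, and in 1.55% of windows. EGR sites were found in Btg2, at -131 to -123, and in Zfp36, at -105 to -97, against 4.70% of windows. TATAA was found in Egr4, Ier3 and Npas4, in another of the Egr2 windows (start at 67537930) but not the one shown, and in 22.8% of windows, and AP-1 sites in 0 of the 6 against 6.75%. These are matches of letters, and no binding was measured. Ier3 held TATAA and none of the other motifs. A CArG box stood both before Egr2, which was lower in KO, and before Zfp36, which did not pass the test.

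All 4 Egr genes were lower in KO islets. Egr1, the most abundant of them, stood at 231, 181 and 274 FPKM in the WT libraries and at 83.8, 85.2 and 79.7 FPKM in the KO libraries. The KO libraries lay close together, with a coefficient of variation of 3.43% against 20.3% in WT, and the lowest WT library was well above the highest KO library. The KO mean of 82.9 ± 2.85 FPKM was 36.2% of the WT mean of 229 ± 46.4 FPKM (SD, n = 3 each). The log2 difference was -1.43 (SE 0.14, 95% interval -1.77 to -1.10, limma adjusted p = 0.000904). Egr1 was in the top 2.06% of tested genes by WT level.

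Egr2, known for its part in myelination and hindbrain patterning, was at 4.35, 4.27 and 4.11 FPKM in WT and at 0.844, 1.23 and 0.912 FPKM in KO. The WT libraries were nearly equal, and all 3 KO libraries were far below them. Its KO mean of 0.996 ± 0.207 FPKM was 23.5% of the WT mean of 4.24 ± 0.119 FPKM. The log2 difference was -1.40 (SE 0.10, limma adjusted p = 0.00037). Egr3 was at 3.25, 4.20 and 4.71 FPKM in WT and at 1.06, 1.95 and 0.529 FPKM in KO. It was the least steady of the 4, with KO libraries that varied by 60.7% of their mean, but the groups did not overlap. Its means were 4.05 ± 0.743 and 1.18 ± 0.715 FPKM, and the log2 difference was -1.25 (SE 0.24, 95% interval -1.82 to -0.69, limma adjusted p = 0.00773).

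Egr4, the smallest Egr gene, fell the most of the 10. It was at 12.2, 11.5 and 10.9 FPKM in WT and at 1.46, 1.23 and 0.860 FPKM in KO. Every KO library was far below every WT library, and the WT libraries differed little from each other. The KO mean was 10.3% of the WT mean, a 9.74-fold difference in FPKM. Its log2 difference of -2.53 (SE 0.11, 95% interval -2.80 to -2.26, limma adjusted p = 0.000197) ranked 8 from the lowest among the 11669 tested genes.

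Summed over the 4 genes, Egr RNA was 249 ± 46.3 FPKM in WT and 86.3 ± 3.87 FPKM in KO, and most of it was Egr1 in every library. Egr1 made up 92.1%, 90.1% and 93.3% of the sum in WT and 96.1%, 95.1% and 97.2% in KO. Egr4 made up 4.87%, 5.71% and 3.69% in WT and 1.68%, 1.37% and 1.05% in KO. Thus Egr1 held more of the Egr sum in every KO library than in any WT library, and Egr4 held less. Egr2 and Egr3 together were a minor share, with 1.75% ± 0.360 and 1.66% ± 0.397 in WT against 1.15% ± 0.205 and 1.34% ± 0.771 in KO.

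Whether the Egr genes fell by unequal amounts was read from the log2 ratio of each to Egr1 within a library (0.1 FPKM added to both), in 3 comparisons. For Egr4 this ratio was -4.23, -3.97 and -4.65 in WT and -5.75, -6.01 and -6.38 in KO. The groups were separate, with a difference of -1.76, and the two-sided exact permutation p was 0.1 (adjusted p = 0.3), the smallest this design allows before adjustment. With 1 FPKM added in place of 0.1 the Egr4 difference was -1.09. For Egr2 the ratio was -5.70, -5.38 and -6.03 in WT and -6.47, -6.00 and -6.30 in KO, so the groups overlapped (difference -0.56, exact permutation p = 0.2, adjusted p = 0.3). For Egr3 it was -6.11, -5.40 and -5.83 in WT and -6.18, -5.38 and -6.99 in KO, also with overlap (difference -0.40, exact permutation p = 0.5, adjusted p = 0.5). The ratios of Egr2 and Egr3 to Egr1 were higher in KO, by 0.036 and 0.18, when 1 FPKM was added in place of 0.1, and Egr3 relative to Egr1 differed by 0.0016 without KO replicate 3. Their order relative to Egr1 was thus not settled, and no ratio passed the adjusted test.

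**Figure D2:**
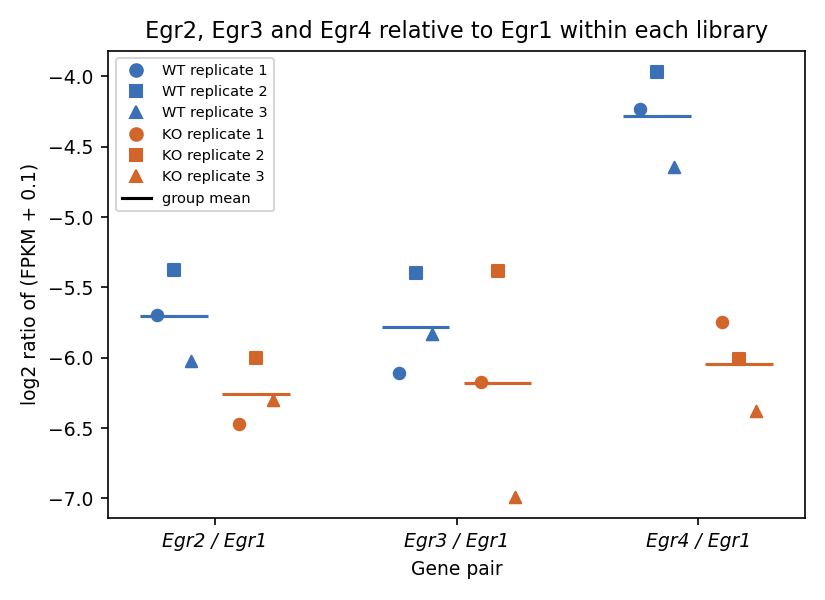
Log2 ratio of Egr2, Egr3 and Egr4 to Egr1 within each library (0.1 FPKM added to both); points are libraries and bars are group means. The Egr4 ratio is separate between WT and KO, at means of -4.28 and -6.04, while those of Egr2 and Egr3 overlap.

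The neuronal activity genes Arc and Npas4 had nearly the same mean level in WT islets and were both lower in KO. Arc was at 85.8, 78.7 and 103 FPKM in WT and at 23.9, 17.1 and 19.8 FPKM in KO. No KO library came near the WT range. Its log2 difference was -2.09 (SE 0.14, 95% interval -2.42 to -1.76, limma adjusted p = 0.00036), and the KO mean was 22.7% of the WT mean. Npas4, which pairs with ARNT proteins on DNA, was at 93.1, 88.2 and 86.6 FPKM in WT and at 48.6, 32.8 and 35.7 FPKM in KO. The WT values were tight, with a coefficient of variation of 3.79%, and KO replicate 1 was the highest of the KO libraries but still below WT. Its means were 89.3 ± 3.38 and 39.0 ± 8.42 FPKM, and the log2 difference was -1.19 (SE 0.14, limma adjusted p = 0.00146). The 95% intervals of the log2 differences of Arc (-2.42 to -1.76) and Npas4 (-1.52 to -0.87) did not overlap, but the difference between the genes was not tested.

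Btg2 and Ier2 were also lower. Btg2 was at 213, 147 and 201 FPKM in WT and at 64.7, 70.6 and 80.4 FPKM in KO, with WT replicate 2 the lowest of its group. The groups were separate, and the KO mean of 71.9 ± 7.96 FPKM was 38.5% of the WT mean of 187 ± 35.0 FPKM. Its log2 difference was -1.35 (SE 0.15, limma adjusted p = 0.00132). Ier2 was at 89.0, 62.8 and 83.0 FPKM in WT and at 37.9, 45.6 and 45.6 FPKM in KO. It fell the least of the 8, WT replicate 2 lying nearest to the KO libraries. Its means were 78.3 ± 13.8 and 43.0 ± 4.43 FPKM, a 1.82-fold difference, with a log2 difference of -0.84 (SE 0.14, limma adjusted p = 0.00509).

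Zfp36 and Ier3 did not pass the test. Zfp36 was at 87.8, 74.1 and 78.9 FPKM in WT and at 51.7, 77.3 and 48.2 FPKM in KO. KO replicate 2 lay within the WT range, and the other KO libraries lay below it. The log2 difference was -0.46 (SE 0.17, 95% interval -0.87 to -0.06, limma adjusted p = 0.0681, exact permutation p = 0.2), and without KO replicate 2 it was -0.67 with an adjusted p of 0.00611. With KO replicate 1 as the only KO library, and the spread taken from WT, it was -0.62 (limma adjusted p = 0.0074). Ier3 was at 24.8, 21.5 and 22.6 FPKM in WT and at 27.9, 47.9 and 21.8 FPKM in KO. KO replicate 2 was again the highest of the KO libraries, while KO replicate 3 lay within the WT range. The log2 difference was 0.41 (SE 0.25, 95% interval -0.19 to 1.01, limma adjusted p = 0.221, exact permutation p = 0.3), so neither a fall of more than 0.19 nor a rise of more than 1.01 lies inside the interval. Ier3 passed the test under none of the 17 other settings run, with log2 differences of 0.10 to 0.65.

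KO replicate 2 was the highest KO library for both genes, as it was for Egr1, Egr2 and Egr3, which were called lower. It also had the highest summed macrophage and myeloid markers of the 6 libraries, at 233 FPKM. That sum was 110 to 127 FPKM in WT and 146 and 85.8 FPKM in KO replicates 1 and 3. Lyz2 alone made up 94.8 FPKM of it in KO replicate 2, against 9.51 to 11.5 FPKM in WT. C1qa, which was called lower, was at 42.5 FPKM in KO replicate 2 and 51.5 to 58.8 FPKM in WT. Of the 12 tested myeloid markers 1 was called lower (8.33%) and 0 higher, beside 19.6% and 20.3% over all tested genes. The lymphoid sum was 193 FPKM in that library, 99.4 and 20.8 FPKM in KO replicates 1 and 3 and 7.47 to 8.69 FPKM in WT. The lymphoid markers called higher reached the 1 FPKM minimum through KO alone, so their number is not given. The part of these cells in the Ier3 and Zfp36 values was not tested.

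**Figure D3:**
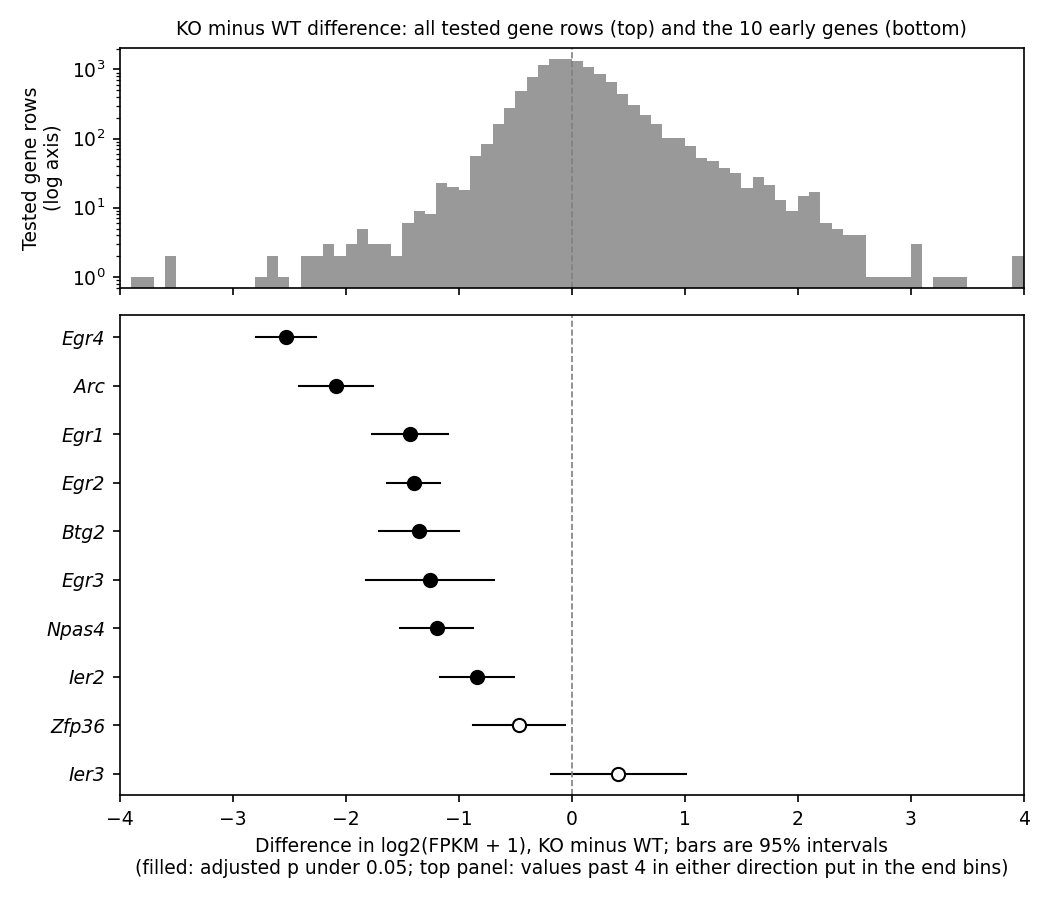
Log2 difference in FPKM + 1, KO minus WT, of each early gene with its 95% interval from limma (bottom), below a histogram of the same difference for all tested genes on a log count axis (top); filled points passed the test. The intervals of 8 genes lie below 0, that of Zfp36 ends at -0.06 although its adjusted p did not pass, and that of Ier3 spans 0.

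Centred on each gene's own mean, the 10 genes had a mean profile of 0.66, 0.48 and 0.68 log2 units in WT replicates 1, 2 and 3 and of -0.61, -0.47 and -0.75 in KO replicates 1, 2 and 3. Within WT, replicate 1 was the highest library for 7 of the 10 genes, and replicate 2 the lowest for 6. Within KO, replicate 2 was the highest for 5 and replicate 3 the lowest for 5. The spread between libraries of one genotype was wider for the 10 genes than the median over all tested genes. Their median SD in log2 units was 0.160 in WT and 0.218 in KO, against 0.069 and 0.116 over all tested genes. The smallest difference among the 8 called genes was -0.84, for Ier2. That it is larger in size than this spread is no further result, since the test selects on difference over spread.

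**Figure D4:**
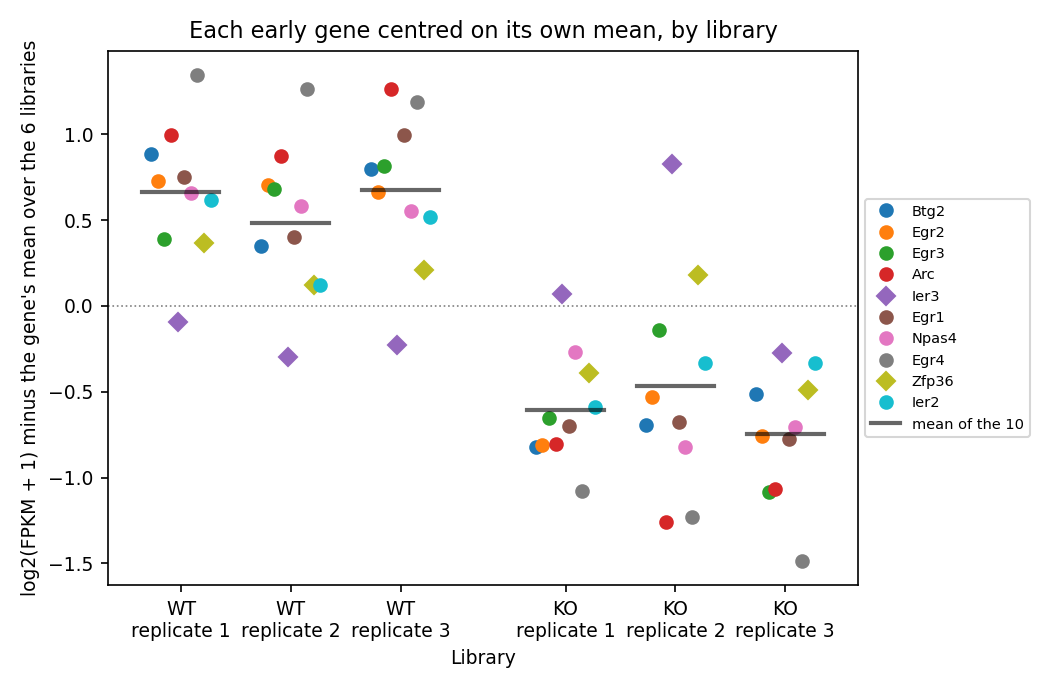
Log2(FPKM + 1) of each early gene minus its mean over the 6 libraries, by library; black bars are the mean of the 10 genes, and diamonds mark Ier3 and Zfp36. The mean is 0.48 to 0.68 in the WT libraries and -0.47 to -0.75 in the KO libraries, and Ier3 in KO replicate 2 is the point farthest above its group.

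The tested genes whose centred values lay nearest to this mean profile over the 6 libraries were Irf1, Nfkbiz, Ffar1, Alkbh6, Bag3 and Mrps12, by root mean square distance (0.065, 0.078, 0.081, 0.103, 0.106 and 0.118 log2 units). Irf1, an interferon-response transcription factor, was at 116 ± 14.1 FPKM in WT and 52.1 ± 3.58 FPKM in KO. Nfkbiz, an inducible regulator of NF-kB, was at 80.9 ± 8.76 and 36.4 ± 2.73 FPKM. Ffar1, the receptor of medium- and long-chain fatty acids in beta cells, was at 34.1 ± 2.55 and 14.8 ± 0.764 FPKM. Bag3, a co-chaperone, was at 86.4 ± 12.4 and 37.5 ± 0.975 FPKM. All 6 were chosen for this likeness, so their differences of -1.12 to -1.20 log2 units are a description. The distance of these 6 genes from Ffar3 was not examined, so a part of the targeted locus in their differences was not tested. Nfkbiz is also in the list of other early genes, and the other 5 are in none of the lists.

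Other early genes, taken from a list of 60 of which 59 were tested, were called in both directions. Of the 59, 30 were lower in KO, 5 were higher and 24 did not pass, or 59.3% called and 50.8% lower, beside 39.9% and 19.6% over all tested genes. This list, like those below, was drawn up with earlier results of these data known, so its counts are a description. The median log2 difference was -0.40. The 4 of smallest p were Nr4a2, Per1, Nr4a1 and Fosb. Fosb, an AP-1 subunit, was at 931 ± 114 FPKM in WT and 154 ± 42.5 FPKM in KO. Nr4a1, an orphan nuclear receptor, went from 493 ± 57.9 to 72.6 ± 20.1 FPKM, with a log2 difference of -2.77 (limma adjusted p = 0.00037). With 1 FPKM added, that was larger in size than the difference of any of the 10 genes. The order depended on the added value: with 0.1 FPKM added, Nr4a1 differed by -2.79 and Egr4 by -3.21. Nr4a2, a relative of Nr4a1, went from 20.3 ± 2.69 to 5.10 ± 0.607 FPKM. The clock gene Per1, which responds to cyclic AMP, went from 71.9 ± 11.2 to 15.1 ± 2.18 FPKM. With KO replicate 1 as the only KO library, the median log2 difference of the 59 was -0.33.

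Of 9 tested relatives of the 10 genes, 2 were lower (Btg1 and Tob1, antiproliferative relatives of Btg2) and 2 higher (Tob2 and Npas2). The 44.4% called and 22.2% lower were near the 39.9% and 19.6% of all tested genes. Btg1 was at 82.0 ± 6.94 FPKM in WT and 48.6 ± 4.87 FPKM in KO (log2 difference -0.74, limma adjusted p = 0.00187), and Tob1 at 59.6 ± 8.69 and 33.0 ± 0.660 FPKM (-0.82, adjusted p = 0.00196). Tob2 differed by 0.27 (adjusted p = 0.0125) and Npas2 by 0.49 (adjusted p = 0.0208), but Npas2, at 0.827 FPKM in WT and 1.57 FPKM in KO, reached the 1 FPKM minimum through KO alone. Both rises missed the threshold when libraries were scaled to equal sums outside the acinar list, with adjusted p-values of 0.399 and 0.0586. Tob2 also missed it without WT replicate 3 (0.0537), and Npas2 when WT replicate 1 (0.0795), WT replicate 2 (0.0587) or KO replicate 2 (0.0511) was left out and in the fit with the acinar covariate (0.0931). Leaving out KO replicate 1 raised the number called among the 9 relatives from 4 to 7.

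Nab1 and Nab2, which encode corepressors that bind EGR1, EGR2 and EGR3, were higher where the Egr genes were lower. Nab2 was at 6.51, 7.48 and 6.13 FPKM in WT and at 15.0, 13.9 and 13.3 FPKM in KO. Nab1 was at 6.86, 7.56 and 5.74 FPKM in WT and at 14.1, 16.6 and 18.0 FPKM in KO. For both, every KO library was above every WT library. The log2 differences were 0.97 (SE 0.08, limma adjusted p = 0.000623) for Nab2 and 1.16 (SE 0.12, limma adjusted p = 0.000954) for Nab1. Both passed under each of the 17 other settings run, with ranges of 0.85 to 1.06 and 0.97 to 1.26. Cnot6, a deadenylase subunit of CCR4-NOT, was higher by 0.59 (adjusted p = 0.00218). Arnt, which pairs with NPAS4, was higher by 0.43 (adjusted p = 0.00222), a call lost on scaling to equal sums outside the acinar list (adjusted p = 0.0945). Of the 15 tested partners, 2 were lower (13.3%) and 6 higher (40%), beside 19.6% and 20.3% over all tested genes, but that count rests on the libraries and the scaling. It was 0 lower and 4 higher without WT replicate 1, without WT replicate 3 and with KO replicate 1 alone, 1 lower and 4 higher when either WT replicate 2 or KO replicate 2 was dropped, and 0 lower and 3 higher on that scaling.

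Genes of the signalling steps upstream were called in both directions. Srf itself was lower, at 99.1 ± 7.43 FPKM in WT and 71.4 ± 5.52 FPKM in KO (log2 difference -0.47, limma adjusted p = 0.00637), and Elk4, encoding one of its ERK-phosphorylated partners, was higher by 0.48 (adjusted p = 0.0114). The other 4 of the 6 tested genes of SRF and its cofactors did not pass. The Elk4 call was lost without WT replicate 3 (adjusted p = 0.0512), on scaling to equal sums (0.0681) and in the fit with the acinar covariate, the mean log2 level of the acinar list (0.0512). Elk1, which did not pass (log2 difference -0.19, adjusted p = 0.115), was called lower without KO replicate 3 (-0.26, adjusted p = 0.0448).

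In the ERK and p38 cascade, 9 of 21 tested genes were higher (42.9%), 2 were lower (9.52%) and 10 did not pass, beside 20.3% higher and 19.6% lower over all tested genes. The list's median was 0.25. The kinase gene Rps6ka5 (MSK1) was at 1.16 ± 0.161 FPKM in WT and 4.74 ± 0.509 FPKM in KO (log2 difference 1.41, limma adjusted p = 0.000396). Mapk14, encoding p38 alpha, was at 35.9 ± 1.09 and 58.3 ± 1.26 FPKM (0.68, adjusted p = 0.00045), while Braf and Rps6ka3 were each higher by 0.51. On scaling to equal sums outside the acinar list, 6 were higher and 1 was lower, and Rps6ka3 was no longer called (adjusted p = 0.0575).

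Of 30 tested genes of calcium and cyclic AMP signalling to the nucleus, 7 were higher and 4 lower, and the 36.7% called was near the 39.9% of all tested genes. The transcription factor genes Mef2d and Mef2a were higher by 0.37 and 0.39 and the calcineurin subunit gene Ppp3r1 by 0.37, whereas Ppp3cb, another calcineurin subunit gene, was lower, with a log2 difference of -0.30. The balance depended on the scaling: on equal sums outside the acinar list 0 were higher and 3 lower, and the calls of Mef2d, Mef2a and Ppp3r1 were lost (adjusted p = 0.158, 0.111 and 0.167). Mef2a was also lost with KO replicate 1 alone (adjusted p = 0.0555). Without WT replicate 1 or without WT replicate 3, 4 were higher and 2 lower. That scaling moved the median of all tested genes by -0.12, to -0.13, and the split of all calls from 2289 lower and 2368 higher to 1619 lower and 944 higher. The 8 early genes remained called under it, and the median of the 10 was -1.41.

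Of 13 tested mRNAs known as targets of tristetraprolin, 4 were lower (30.8%) and 3 higher (23.1%), beside 19.6% and 20.3% over all tested genes, with a median log2 difference of 0.14. Of the 3 higher, Il10 reached the 1 FPKM minimum through KO alone. Ccl3, Tnf and Il1b, which encode inflammatory mediators, were lower: Ccl3 was at 25.4 ± 3.75 FPKM in WT and 9.53 ± 2.43 FPKM in KO, Tnf at 11.5 ± 3.00 and 3.47 ± 0.974, and Il1b at 25.3 ± 0.445 and 10.8 ± 4.18. Myc was higher, at 2.37, 2.60 and 2.88 FPKM in WT and 6.38, 17.7 and 17.1 FPKM in KO. KO replicate 1, with acinar transcripts near the WT level, had the smallest Myc value of the KO libraries (log2 difference 1.91 over all libraries, limma adjusted p = 0.00625). Ier3 and Myc are in more than 1 of the lists, which overlap.

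**Figure D5:**
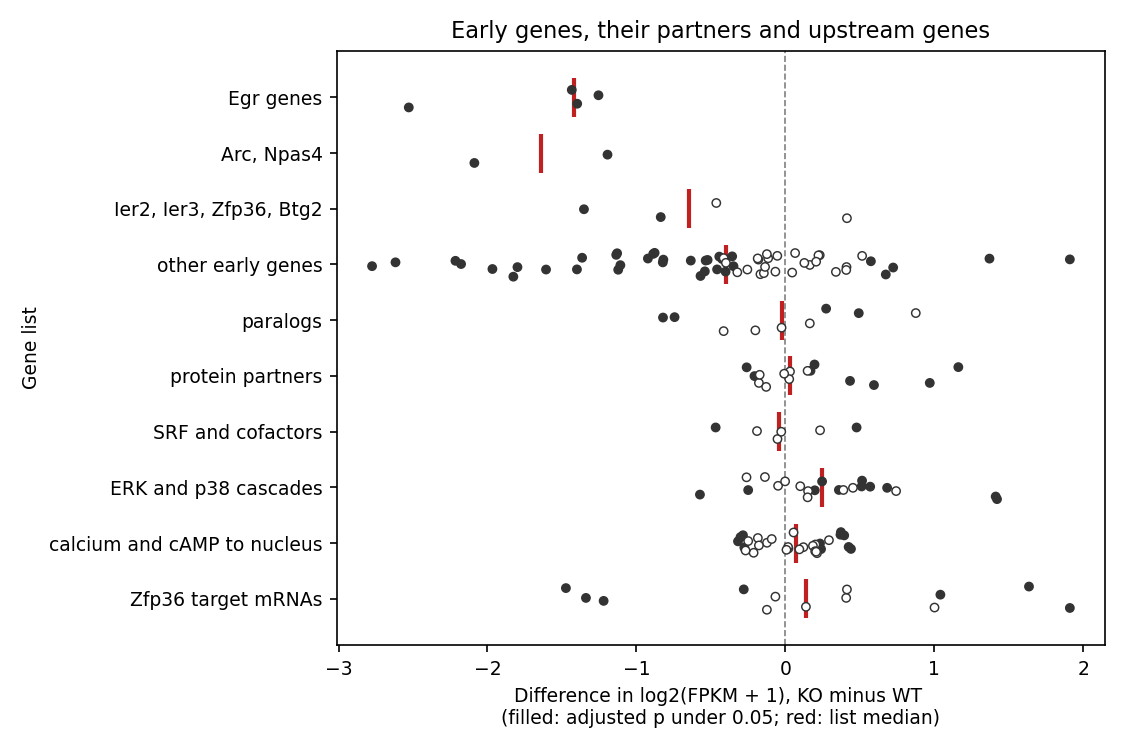
Log2 difference in FPKM + 1, KO minus WT, of every tested gene in each list, for the early genes, the other early genes, relatives, partners, upstream signalling and tristetraprolin targets; each point is a gene, filled where it passed the test, and each red bar is the list's median. The medians are -0.40 for the other early genes and between -0.04 and 0.25 for the other 6 lists outside the 10 genes.

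The 10 genes are compact. In the GENCODE M21 annotation of GRCm38 they spanned 1.24 to 6.71 kb, with a median of 3.72 kb against 24.6 kb over 10297 tested genes with a transcript there. All but Npas4, which has 8 exons, had at most 4 exons, or 9 of 10 against 19.8% of tested genes, and 6 of 10 spanned under 5 kb against 10.7%. The pentamer ATTTA, the core of AU-rich elements, occurred at least 3 times in the 3′ untranslated region of 5 of the 10 (Egr2, Egr3, Ier3, Zfp36 and Btg2), against 38.8% of tested genes and 38.2% of those with such regions of 519 to 2645 bases. Egr4, Arc and Ier2 had 0 copies and were all lower in KO. Per kb of that region, the copies were densest in Ier3 (8.16) and Zfp36 (3.88), the genes that did not pass the test. They lay between 0 and 2.65 per kb in the 8 called genes. By number, the called genes Egr3 and Btg2 had 7 and 5 copies, beside 5 in Ier3 and 3 in Zfp36. A relation between the pentamer and the KO difference was not tested.

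The genes lie on 10 different chromosomes. On GRCm38, Egr1 is at chr18:34859823-34864984, Egr2 at chr10:67535475-67542188, Egr3 at chr14:70077203-70082614 and Ier3 at chr17:35821684-35822923, all on the plus strand. On the minus strand are Egr4 at chr6:85511121-85513589, Arc at chr15:74669083-74672570, Npas4 at chr19:4984355-4990316, Ier2 at chr8:84661331-84662852, Btg2 at chr1:134075170-134079120 and Zfp36 at chr7:28376784-28380253. Zfp36 is the only one on the chromosome of Ffar3, 2.47 Mb from it, and it did not pass the test. An antisense transcript, Gm44710, overlaps Zfp36, and because the strand setting of the counting is not given in the sources used here, fragments of the pair could not be told apart.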

How the data were processed

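The deposited values were taken to be FPKM, as the authors' use of Cuffdiff 2.1.1 after TopHat2 2.0.8b on mm10, per the submitters' processing notes, and the decimals in the files point to that unit. What annotation, strand setting and between-library scaling were used is not given in the sources used here. Each FPKM depends on the scaling of its library, and total depth is unknown. The FPKM sum was 416935 in KO replicate 1 and 1056340 in KO replicate 3, yet median-of-ratios factors were 0.995 to 1.00. The values were thus already near a common scale between libraries, by a method not given. Groups and replicate numbers came from the titles and genotype labels. Rows with a mean of at least 1 FPKM were fitted together with limma 3.58.1 in R 4.3.3 (log2(FPKM + 1), eBayes with trend, 2-sided, group only), with Benjamini-Hochberg adjustment over all 11669 rows and a threshold of 0.05. The fit was tested on simulated data. Single values and Egr ratios were given exact permutation tests (scipy 1.17.1). Named genes were all 10 members, the 4 of smallest p in each other list, the 6 of nearest profile and Ffar3. Members and lists were chosen with earlier results of these data known. Alternatives were another pseudocount, filter, scaling, variance prior, weights, a replicate block, each library left out, KO replicate 1 alone and an acinar covariate; scalings, the block and left-out libraries for the list counts were added after the data were seen. Figures were drawn with matplotlib 3.10.9 under Python 3.11.15. Motifs were searched in RefSeq windows on GRCm38.p6, the assembly that mm10 denotes.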

Additional observations from a re-analysis of the deposited data

How the results depend on the processing

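The 8 early genes called lower passed under all 17 other settings, except that Egr2 and Egr3 (16 settings) were not tested with a mean of at least 5 FPKM; log2 differences ranged from -1.85 to -1.03 for Egr3 and -3.21 to -2.34 for Egr4. Zfp36 missed the threshold in 15 of 17. The number of all tested genes called, 4657, was 2563 on scaling to equal sums outside the acinar list, 3013 with KO replicate 1 alone and 2909 with the acinar covariate, and 2482 to 5730 with a library left out (2482 without WT replicate 1, 2518 without WT replicate 3). Egr2 and Egr3 relative to Egr1 turned to 0.036 and 0.18 with 1 FPKM added; left-out libraries gave -0.80 to 0.0016 for Egr3. Calls among partners, 8 of 15, were 4 with KO replicate 1 alone, 4 with the covariate, 3 on equal sums and 4 to 10 with a library left out. Those of SRF and its cofactors, 2 of 6, were 1 with the covariate, 1 on equal sums and 1 to 3 with a library left out. Calcium and cyclic AMP calls, 11 of 30, were 7 with KO replicate 1 alone, 3 on equal sums and 6 to 15 with a library left out. On equal sums, relatives had 2 calls in place of 4 and the ERK and p38 cascade 7 in place of 11; left-out libraries gave 3 to 7 for relatives. The cause of these shifts was not tested. The labels do not say whether replicate numbers pair the libraries. Deviations of same-numbered libraries correlated at -0.21, -0.09 and 0.03, and those of differently numbered ones at -0.16 to 0.20. With so few libraries these values cannot settle whether the numbers mark pairs. With the replicate block, 8 of the 10 early genes and 3865 of all tested genes were called, and partners had 5 calls in place of 8. Depth limits Egr2, Egr3 and Egr4 in KO, at about 1 FPKM.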
